A study of Mus musculus with 2 samples.

Results

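Barcodes selected on marker transcripts of border-associated macrophages, 624 out of 15975 in all, were examined in single-cell RNA-seq of infarcted mouse brain. Of the 624, 230 had no UMI of Cd163, Lyve1, Fcna or Vsig4. As a group these 230 carried markers of infiltrating macrophages, which microglia carried at a lower level, so the name may not hold for all that were selected. The cells came from brain tissue dissected 3 days after transient middle cerebral artery occlusion (tMCAO, a model of ischaemic stroke with reperfusion), digested with collagenase and captured on the BD Rhapsody system. There was 1 library from flox mice, which the design text calls WT, and 1 library from Hilpda cKO (conditional knockout) mice; both groups underwent the same occlusion. The labels do not give the Cre driver, the deleted exons, the strain, the age of the animals or how many were pooled per library. Each group is 1 library, so no test was made, differences have no replicate check, and genotype cannot be told apart from library preparation. Intervals are 95% intervals that cover counting error only.

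A barcode was a member if it had at least 1000 UMIs (unique molecular identifiers, each counting 1 captured transcript), at most 25% mitochondrial UMIs, at least 3 UMIs and 3 per 10000 UMIs of Cd163, Lyve1, Cbr2, Fcna and Vsig4 summed, at least 1 UMI of Mrc1, and S100a8 plus S100a9 below 100 per 10000. These genes were measured in the same cells, so their levels describe the choice and support nothing. The flox library gave 282 members of 7768 barcodes within the UMI and mitochondrial limits (3.63%, exact Clopper-Pearson interval 3.23 to 4.07). The cKO library gave 342 of 6612 (5.17%, 4.65 to 5.73). The intervals did not overlap, but the cKO barcodes were also deeper, with a median of 13051 UMIs per member against 9956.5 in flox, and 9408 against 7456 over all barcodes within the limits. Whether depth, dissection or genotype set the share was not tested.

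Border-associated macrophages live in the meninges, the perivascular spaces and the choroid plexus rather than in the brain parenchyma. They are distinguished from microglia by scavenger and endocytic receptors: Mrc1 (CD206, the mannose receptor), Cd163 (the haemoglobin-haptoglobin receptor), Lyve1 (a hyaluronan receptor) and Stab1 (stabilin-1). In stroke they share the tissue with microglia, which carry P2ry12 and Tmem119, and with monocyte-derived macrophages that enter from blood and carry Ccr2, Chil3 and, as they mature, Gpnmb and Arg1. Hilpda, the gene deleted in the cKO mice, encodes a small lipid droplet protein that is induced by hypoxia and inhibits the triglyceride lipase ATGL.

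The limits of the rule lay inside a continuum. Exactly 3 UMIs of the 5 summed genes were present in 20 flox and 20 cKO members, and 30 flox and 20 cKO barcodes fell just outside with 2. A further 27 flox and 53 cKO barcodes had 3 or more UMIs but only 2 to 3 per 10000. A single Mrc1 UMI carried 59 flox and 81 cKO members over that limit, whereas 275 flox and 347 cKO barcodes met every other condition and had no Mrc1 UMI. Of these, only 2 flox and 10 cKO barcodes had 3 or more UMIs of Cd163, Lyve1, Fcna and Vsig4. The limit on S100a8 and S100a9, neutrophil genes, left out 0 flox and 1 cKO barcode.

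The 5 summed genes were not found together in most members. Cbr2, a carbonyl reductase, was detected in 99.3% of flox and 99.7% of cKO members. Lyve1 was detected in 53.5% and 35.4%, Cd163 in 41.1% and 31.9%, Fcna (ficolin A, a lectin of the complement pathway) in 48.9% and 49.4%, and Vsig4 (a complement receptor) in 13.1% and 21.3%. In flox, 95 members had only 1 of the 5 genes and 22 had all 5. In cKO, 135 had only 1 and 27 had all 5. The sum rested on Cbr2, with fewer than 3 UMIs of the other 4 genes, in 123 of 282 flox and 180 of 342 cKO members. Cbr2 was also present at low share in other cells: 12.7% of flox and 24.1% of cKO microglia had a Cbr2 UMI, against 2.67% and 4.17% of oligodendrocytes (median 9045 and 13549 UMIs per microglial barcode, 4757 and 4662.5 per oligodendrocyte).

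Promoter sequence is shown for Cd163 and Vsig4, because their transcripts are among those by which the members are divided below. Of the 6 genes that had to be present, 5 matched an entry of the RefSeq promoter table (GRCm38.p6) and Lyve1 did not. The 250 bases before the annotated start of Cd163 (chr6:124304401-124304650, plus strand) and of Vsig4 (chrX:96293439-96293688, minus strand) are printed 5′ to 3′ on the gene's strand, with capitals marking the PU.1 core GAGGAA, or TTCCTC where the motif lies on the other strand. PU.1 is the lineage factor of macrophages. Cd163 holds 0 matches and Vsig4 holds 2, against 3 for Mrc1, 3 for Fcna and 1 for Cbr2. A second motif, the MAF site TGCTGA, was searched on both strands as TGCTGA or as TCAGCA. It ends in the letters that begin the first motif, so the matches can overlap; of these 5 windows Fcna holds 2 and the others 0. Of 32851 promoters of the same length, 23.3% hold GAGGAA and 16.1% hold TGCTGA on either strand, so a match is a description of these letters only, and a window without one says nothing of the factor.
Cd163: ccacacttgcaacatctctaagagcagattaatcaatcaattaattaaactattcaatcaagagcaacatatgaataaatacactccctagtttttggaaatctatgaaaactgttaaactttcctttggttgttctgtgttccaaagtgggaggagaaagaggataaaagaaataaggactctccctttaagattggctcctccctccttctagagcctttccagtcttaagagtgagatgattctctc
Vsig4: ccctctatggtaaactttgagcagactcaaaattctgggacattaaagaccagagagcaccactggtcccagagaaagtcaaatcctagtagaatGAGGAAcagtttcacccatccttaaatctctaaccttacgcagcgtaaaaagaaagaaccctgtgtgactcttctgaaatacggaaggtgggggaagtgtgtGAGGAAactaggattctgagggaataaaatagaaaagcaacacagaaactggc

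Members fell into 2 kinds by the genes other than Cbr2. Members with at least 3 UMIs of Cd163, Lyve1, Fcna and Vsig4 summed are called several-gene members: 159 in flox (56.4% of members, 50.4 to 62.3) and 162 in cKO (47.4%, 42.0 to 52.8). Members with 0 such UMIs, which rested on Cbr2 for the limit, are called Cbr2-only members: 95 in flox (33.7%, 28.2 to 39.5) and 135 in cKO (39.5%, 34.3 to 44.9). The remaining 28 flox and 45 cKO members had 1 or 2 such UMIs. Both kinds were similar in depth within a library, with medians of 9015 and 10283 UMIs in flox and 13194 and 12776 in cKO. This split was made after values had been seen, and everything said of it is a description.

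**Figure D1:**
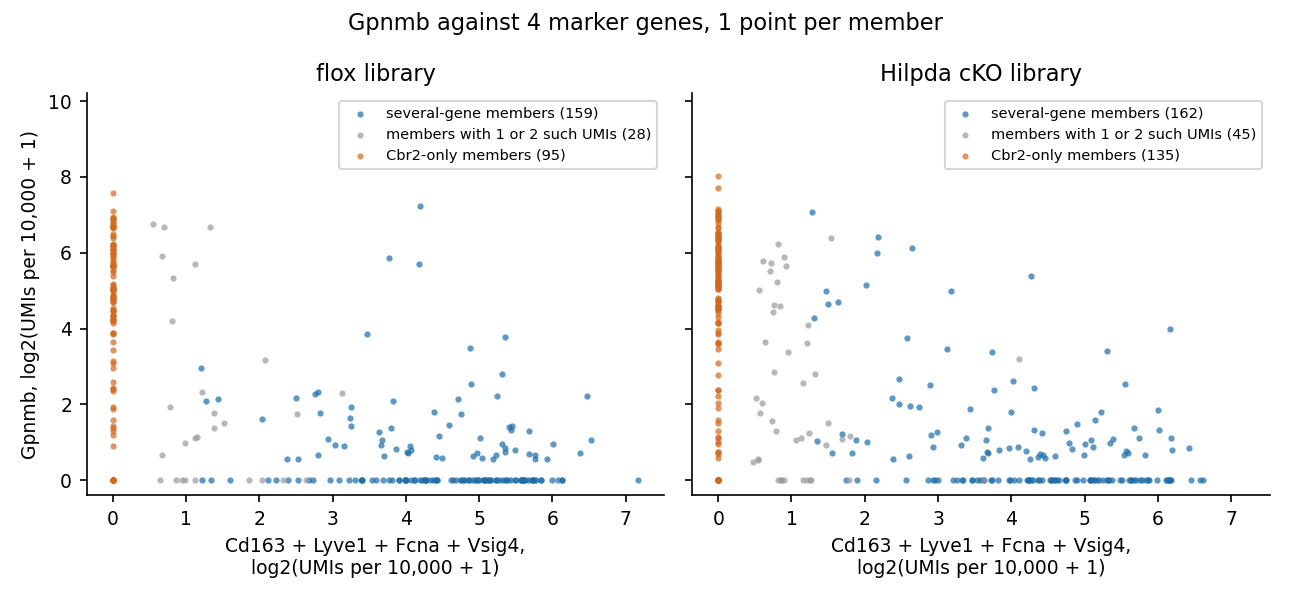
Each point is 1 member; the x axis is the summed level of Cd163, Lyve1, Fcna and Vsig4 and the y axis that of Gpnmb, both as log2(UMIs per 10000 + 1), for the flox library (left) and the Hilpda cKO library (right). Several-gene members (159 and 162) mostly lie along the bottom and Cbr2-only members (95 and 135) mostly rise along the left edge, with few points high on both axes.

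Genes of border-associated macrophages set the 2 kinds of members apart. Across a list of 28 border-associated macrophage genes that the rule did not use, 21 were measured (30 UMIs or more and 100 CPM or more on the higher side, CPM being the UMIs of a gene scaled to a common total after summing over a class and library), and 13 were at least 2-fold higher in several-gene than in Cbr2-only members of both libraries, with 0 lower. Over all 1755 genes measured in that comparison, 126 (7.18%) were higher and 81 (4.62%) lower in both libraries. Summed, the list reached 16513 CPM in flox several-gene members and 13885 CPM in those of cKO, 6135 and 5792 CPM in Cbr2-only members, 2514 and 2611 CPM in microglia, and 3439 and 3120 CPM in infiltrating macrophages. Cbr2-only members thus lay between several-gene members and both other classes in each library.

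Mrc1, of which the rule asked only 1 UMI, had a median of 24.6 UMIs per 10000 in flox and 16.9 in cKO several-gene members (quartiles 16.6 to 32.4 and 9.03 to 28.1). In Cbr2-only members its median was 1.60 and 1.32. F13a1, the A subunit of coagulation factor XIII, is on the border-associated macrophage list. It stood at 2443 and 2178 CPM in several-gene members and 637 and 547 CPM in Cbr2-only members. Its median per member was 23.3 and 20.7 per 10000 against 5.12 and 4.01. F13a1 was not confined to members: 56.25% of flox and 65.5% of cKO infiltrating macrophages had a UMI of it. With cells thinned to a common depth, these shares were 28.4% and 33.1%, beside 36.8% and 35.6% of Cbr2-only members. Several-gene members then had 79.2% and 85.2%. Folr2, the folate receptor beta, gave 930 and 913 CPM against 248 and 213. Ednrb, the endothelin B receptor, gave 1012 and 722 CPM against 60.9 and 38.0. Cd209f, a C-type lectin, gave 220 and 141 CPM and had 0 UMIs in all Cbr2-only members of both libraries. Set against a floor of 3 counts over the class, it was higher by at least 6.20 and 6.37 on the log2 scale. Pf4 and Ms4a7, general markers of non-microglial macrophages, did not separate the 2 kinds: Pf4 stood at 932 and 891 CPM against 656 and 790.5, and Ms4a7 at 673 and 600 CPM against 739 and 620.

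Cbr2-only members carried the marker list of monocytes and infiltrating macrophages. All 6 measured genes of that list (Ccr2, Chil3, Arg1, Gpnmb, Fn1 and Thbs1) were at least 2-fold higher in them than in several-gene members of both libraries. Over all 1755 genes measured, 4.62% were. Summed over 14 genes, the list reached 11406 CPM in Cbr2-only members of flox and 12789 CPM in those of cKO, against 762 and 1763 CPM in several-gene members and 13574 and 16672 CPM in infiltrating macrophages. At least 3 UMIs of it were present in 98.9% of flox and 95.6% of cKO Cbr2-only members, and in 30.2% and 51.2% of several-gene members. Gpnmb, a lysosomal glycoprotein of lipid-loaded macrophages, stood at 4329 and 4740 CPM against 291 and 595 CPM. Thbs1, thrombospondin-1, stood at 4882 and 5922 CPM against 206 and 702. Vegfa, the hypoxia-induced vessel growth factor, stood at 470 and 186 CPM against 8.17 and 23.5, the latter from 13 and 47 UMIs. Chil3, a chitinase-like protein of monocytes, stood at 273 and 453 CPM against 12.6 and 32.0. Ccr2, the chemokine receptor that brings monocytes into tissue, stood at 300 and 126 CPM against 32.1 and 13.5, below the 1146 and 859 CPM of infiltrating macrophages, which were themselves chosen partly on Ccr2 and Chil3. Microglial genes were not absent from members. The microglia list summed to 4159 and 4552 CPM in several-gene members and to 4938 and 4795.5 CPM in Cbr2-only members. It reached 17058 and 14189 CPM in microglia and 2173 and 1714 CPM in infiltrating macrophages. Microglia were chosen on the presence of some genes of this list and infiltrating macrophages on their absence. P2ry12 had a UMI in 67.9% and 68.5% of several-gene members, 83.7% and 78.8% of microglia, which were chosen partly on it, and 2.67% and 1.39% of oligodendrocytes, at 167 and 140 CPM in several-gene members and 535 and 308 CPM in microglia. In Cbr2-only members a P2ry12 UMI was found in 55.8% and 53.3%. Both kinds thus carried microglial markers, several-gene members together with the markers of the label. Cbr2-only members are named here by their rule.

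**Figure D2:**
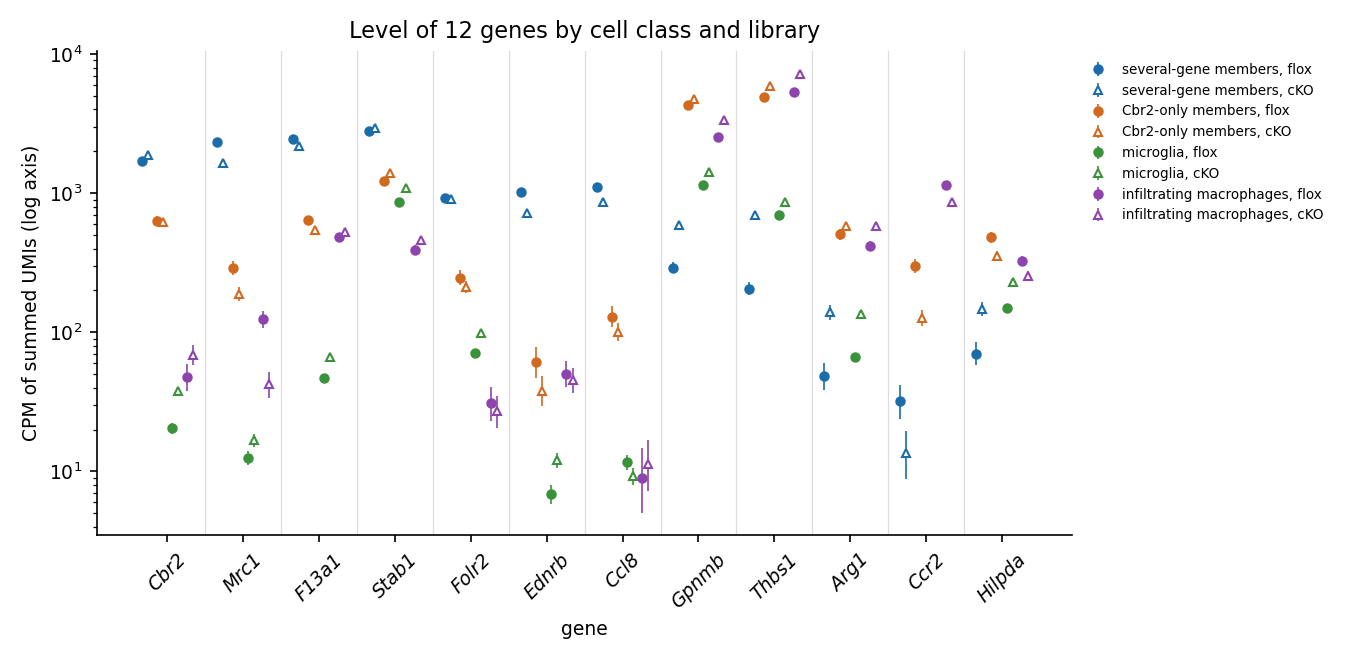
CPM of summed UMIs on a log axis for 12 genes in several-gene members, Cbr2-only members, microglia and infiltrating macrophages; filled circles are flox, open triangles cKO, and bars are exact Poisson intervals of the sum. Cbr2 and Mrc1 were used to choose members; for F13a1, Stab1, Folr2, Ednrb and Ccl8 several-gene members are highest, and for Gpnmb, Thbs1, Arg1, Ccr2 and Hilpda Cbr2-only members lie above them in both libraries.

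Across single members, the summed level of Cd163, Lyve1, Fcna and Vsig4 ran with F13a1 (Pearson r 0.69 over 282 flox and 0.70 over 342 cKO members) and against Gpnmb (−0.68 and −0.65). For Pf4 it was 0.30 and 0.23. Members of a library share its preparation, and values per 10000 share each cell's total, so these are given without a p.

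Chemokine genes were a group in which several-gene members stood high. Over all 1755 genes measured between the 2 kinds, 7.18% were higher in several-gene members of both libraries and 4.62% lower. Of 13 measured chemokines, 6 were at least 2-fold higher in several-gene than in Cbr2-only members of both libraries and 0 were lower. All 6 encode CC chemokines: Ccl2 and Ccl7, which attract monocytes through Ccr2, together with Ccl6, Ccl8, Ccl9 and Ccl12. In several-gene members Ccl7 stood at 2802 (flox) and 1956 CPM (cKO), beside 852 and 523 CPM in Cbr2-only members, 76.9 and 92.3 CPM in microglia and 409 and 241 CPM in infiltrating macrophages. Ccl8 stood at 1101 and 865 CPM, 130 and 101 CPM, 11.6 and 9.24 CPM, and 8.93 and 11.4 CPM in the same order of classes. A Ccl8 UMI was found in 74.2% of flox and 80.2% of cKO several-gene members, against 28.4% and 32.6% of Cbr2-only members and 0% and 1.39% of oligodendrocytes, which should lack it (0 of 75, which allows up to 4.80%). Ccl12 stood at 1654 and 1646 CPM against 266 and 181 CPM in Cbr2-only members. Cxcl2, a neutrophil attractant, did not follow this pattern, with 3497 and 3904 CPM in several-gene and 3694 and 3434 CPM in Cbr2-only members. Ccl4 was higher in microglia (4086 and 3818 CPM) than in several-gene members (2213 and 2622 CPM).

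**Figure D3:**
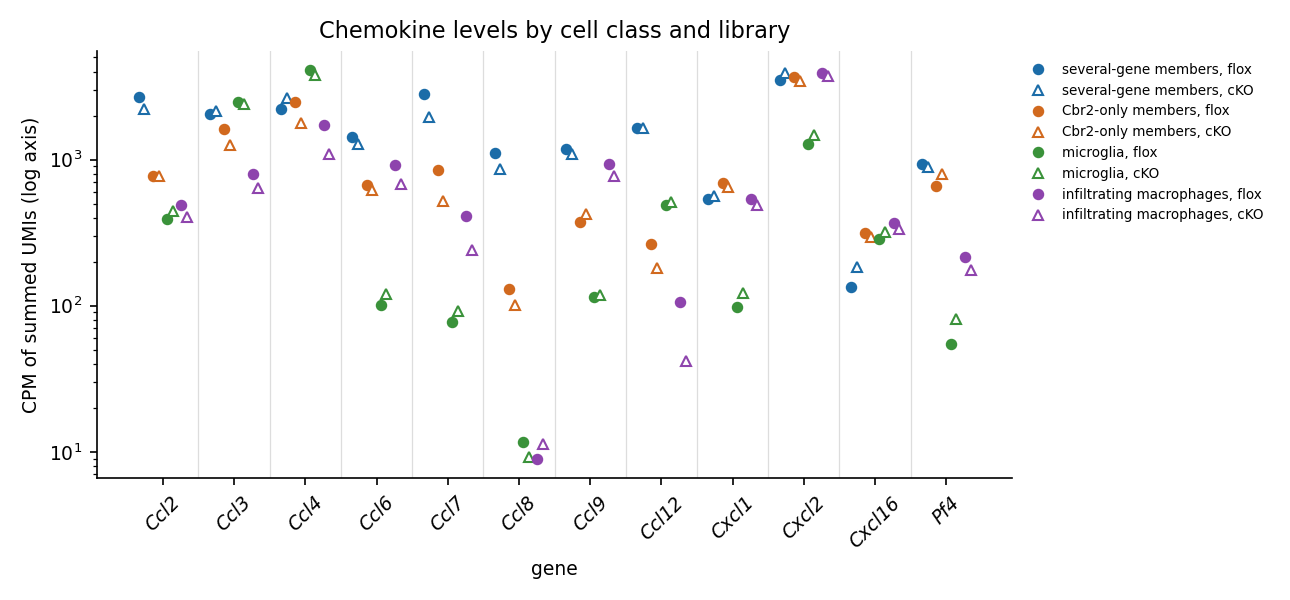
CPM of summed UMIs on a log axis for 12 chemokine genes in the same 4 classes, filled circles for flox and open triangles for cKO. Several-gene members are above the other classes for Ccl2, Ccl7, Ccl8 and Ccl12 in both libraries, and level with Cbr2-only members and infiltrating macrophages for Cxcl2.

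Other gene groups divided the 2 kinds of members as follows. Over all 1755 genes measured in this comparison, 7.18% were higher in several-gene members of both libraries and 4.62% lower. The lists are short, and whether a count exceeds that share was not tested. Of 14 measured scavenger and endocytic receptors, 8 were higher in several-gene members (Stab1, Colec12, Cd209f, Clec10a, Clec4n, Clec4a2, Folr2 and Dab2) and 1, Lrp1, was lower. Of 11 measured complement genes 3 were higher, among them C4b (752 CPM in flox and 850 in cKO against 65.9 and 59.0) and C2 (151 and 121 CPM against 3.00 and 5.67). Of 8 measured genes of haem and iron handling 3 were higher: Cp (ceruloplasmin), Blvrb (biliverdin reductase B) and Trf (transferrin). Igf1, a growth factor of resident macrophages, was higher by 2.15 (1.83 to 2.49) in flox and 2.88 (2.58 to 3.20) in cKO on the log2 scale. In the other direction, 6 of 13 measured genes of matrix and proteases were lower in several-gene members (Mmp8, Mmp14, Adam8, Fn1, Thbs1 and Cd44) and 1, Plau, was higher. Of 13 glycolysis and hypoxia genes, 4 were lower: Tpi1, Pgam1, Vegfa and Hif1a. Of 16 inflammatory genes, 3 were lower in several-gene members (Il1b, Ptgs2 and Tnfaip2) and 0 higher, with Il1b at log2 ratios of −2.13 and −1.53 and Ptgs2, cyclooxygenase-2, at 165 and 199 CPM against 1153 and 753. Il10, of the same list, stood at 159 and 203 CPM against 314 and 372 and did not pass the rule. Apoe, an apolipoprotein, was abundant in both, at 6859 and 7875 CPM in several-gene and 14762 and 12081 CPM in Cbr2-only members.

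The genes with the highest ratios between several-gene and Cbr2-only members, past the size rule in both libraries and rule genes left out, were Cd209f, Cp, C2, Igfbp4, Ednrb, Colec12, Alox5, Ccn1, Clec4n, C4b, Cd4 and Vcam1. Igfbp4, an IGF-binding protein, was higher by 4.14 (3.66 to 4.66) in flox and 4.12 (3.67 to 4.60) in cKO on the log2 scale. Vcam1, an adhesion molecule, was higher by 3.83 (3.39 to 4.30) and 3.49 (3.15 to 3.84). Alox5, the 5-lipoxygenase of leukotriene synthesis, was higher by 5.93 (4.06 to 8.99) and 4.02 (3.27 to 4.87). The lowest were Chil3, Ccr2, Cd24a, Thbs1, Gpnmb and Vegfa.

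Members were also divided on Lyve1 alone. A Lyve1 UMI was present in 151 flox and 121 cKO members. Of 1776 genes measured, 118 (6.64%) were higher and 86 (4.84%) lower in Lyve1-positive members of both libraries. The highest ratios, rule genes left out, were those of Cd209f, Clec10a, Ednrb, Igfbp4, Clec4n, Ccn1, Alox5, Cp, Stard8, Kank2, Ifi27l2a and Cebpd. Clec10a, a galactose-binding lectin, stood at 209 and 167 CPM in Lyve1-positive against 16.1 and 9.74 CPM in Lyve1-negative members. The lowest were Chil3, Thbs1, Gpnmb, S100a4, Fabp5 and Vegfa. Fabp5, a fatty acid binding protein, stood at 385 and 498 CPM in Lyve1-positive against 2738 and 3673 CPM in Lyve1-negative members. Lyve1 is one of the rule's genes, so this split and the preceding one share cells and are not separate evidence.

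Against microglia (2301 flox and 1605 cKO barcodes chosen on P2ry12, Tmem119, Siglech, Gpr34, Olfml3 and Sall1 and on the absence of Ccr2, Ly6c2, Plac8 and Chil3), members as a whole were at least 2-fold higher in both libraries for 115 of 1730 genes (6.65%) and lower for 65 (3.76%). The 12 highest, rule genes left out, were Ccl8, Ednrb, F13a1, Igfbp4, Ccl7, Clec4a1, C4b, Pf4, Vcam1, Cfp, Colec12 and Gpx3. F13a1 was higher by 5.13 (5.03 to 5.22) in flox and 4.32 (4.24 to 4.41) in cKO. Colec12, a scavenger receptor of the collectin family, stood at 235 and 165 CPM against 9.67 and 17.9 CPM. Among the lowest were Chst2, Serpine2, Adamts1, Csf1 and Cd34. Serpine2, a protease inhibitor, stood at 8.61 and 25.8 CPM in members and 569 and 600 CPM in microglia. The cytokine gene Csf1, which encodes the growth factor of macrophages, stood at 11.0 and 21.3 CPM against 247 and 318 CPM. Of 13 measured chemokines, 8 were higher in members than in microglia and 1, Cxcl10, was lower.

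Against infiltrating macrophages (352 flox and 362 cKO barcodes chosen on Ccr2, Ly6c2, Plac8, Chil3 and F10 and on the absence of the microglial genes and of Flt3), 107 of 1796 genes (5.96%) were higher and 95 (5.29%) lower in both libraries. The highest, leaving out rule genes and the genes that chose the other class, were Colec12, Ccl8, Vcam1, Pmp22, Igfbp4, Folr2, C4b, Tspan7, Fcgrt, Npl, Ltc4s and Igf1. The lowest were H2-Eb1, H2-Aa, H2-Ab1, Cd74, Cytip and Ifitm1. The MHC class II genes, which present antigen to CD4 T cells, were lower for 4 of 6 measured genes, and the list's median log2 ratio was −4.40 in flox and −5.23 in cKO, beside −0.05 and −0.04 over all genes measured. H2-Aa stood at 139 and 59.7 CPM in members and 3898 and 2783 CPM in infiltrating macrophages. Cd74, the invariant chain, stood at 268 and 126 CPM against 4387 and 3830 CPM. Dendritic cell markers summed to 148 and 71.1 CPM in infiltrating macrophages and 43.4 and 26.5 CPM in members, and their part in this difference was not tested. Against microglia, 0 of 3 measured MHC class II genes passed the rule, with medians of −0.10 and −0.15. Infiltrating macrophage barcodes were shallower, with medians of 4420.5 and 5346.5 UMIs. With several-gene members alone the counts were 194 higher and 161 lower, and with Cbr2-only members alone 35 higher and 55 lower. Cbr2-only members held fewer UMIs, 1001073 in flox and 1763532 in cKO, against 1590842 and 2002907 in several-gene members. The number of genes measured in each of these comparisons is not given, so the counts do not rank the 2 kinds.

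Lists of markers of cells other than myeloid cells were summed in members. The endothelial list (10 genes) summed to 69.9 CPM in flox and 104 CPM in cKO members, with its defining gene Cldn5 at 7.93 and 2.74 CPM, beside 158 and 38.4 CPM in all other barcodes. Prox1, which defines lymphatic endothelium, another Lyve1-expressing cell, was at 12.7 and 10.3 CPM, beside 17.0 and 14.1 CPM in all other barcodes, and Ccl21a, Mmrn1 and Reln of the same list were at 0 in members of both libraries. The whole lymphatic list summed to 128 and 182 CPM in members, beside 62.3 and 82.7 CPM in microglia, and 14.9% and 23.1% of members had 3 or more UMIs of it. Most of that sum was Pdpn (podoplanin), at 114 and 171 CPM in members. Pdpn stood at 230 and 300.0 CPM in Cbr2-only members, 37.1 and 43.4 CPM in several-gene members and 97.0 and 104 CPM in infiltrating macrophages. The part of lymphatic cells in these values was not tested. Ttr, the transthyretin of choroid plexus epithelium, had a UMI in 76.2% and 85.7% of members, and thinned to 1000 UMIs its share was 18.4% and 21.6% of members against 18.6% and 17.6% of microglia. Scrublet marked 4 flox and 6 cKO members as doublets. Of the barcodes, 56 sequences occurred in both libraries, and 0 were members in both.

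Hilpda itself (chr6:29272488-29275446, plus strand, GRCm38) was the first gene compared between the libraries. In members it was measured at 244 (flox) and 261 CPM (cKO) (log2 cKO over flox 0.10, −0.03 to 0.24), beside 274 and 212 CPM in all other barcodes (−0.37). The kinds of members went apart. In several-gene members Hilpda stood at 70.4 CPM (112 UMIs) in flox and 146 CPM (293 UMIs) in cKO (1.06, 0.74 to 1.38). In Cbr2-only members it stood at 484 CPM (485 UMIs) and 353 CPM (622 UMIs) (−0.46, −0.63 to −0.28). Microglia had 149 and 232 CPM and infiltrating macrophages 326 and 253 CPM. A Hilpda UMI was found in 35.8% of flox and 37.0% of cKO several-gene members, and in 67.4% (57.0 to 76.6) and 43.0% (34.5 to 51.8) of Cbr2-only members, with 13.3% and 8.33% of oligodendrocytes as the background. After thinning to 1000 UMIs the shares were 3.77% and 6.79% in several-gene and 23.2% and 17.0% in Cbr2-only members, with overlapping intervals. In several-gene members 5 barcodes held 32.1% of the Hilpda UMIs in flox and 41.6% in cKO. Without the 5 highest barcodes of each library the ratio was 0.83 (0.44 to 1.24). The larger share was in cKO, so this ratio moves down by construction. The files count the 3′ end of transcripts, which may lie outside the deleted part, so this level checks neither the genotype nor the deletion.

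Between the libraries, members as a whole were at least 2-fold higher in cKO for 9 of 1846 measured genes (0.488%) and at least 2-fold lower for 70 (3.79%). The 9 higher genes were Lyz1, Igfbp7, Sparc, Abcg1, Lgals3, Myo1e, Slc38a7, Flna and Fam20c. Abcg1, the transporter that moves cholesterol to HDL, stood at 163 (flox) and 375 CPM (cKO) (1.20, 1.05 to 1.35), beside 0.39 in all other barcodes. Lgals3, galectin-3, stood at 1114 and 2546 CPM (1.19, 1.14 to 1.25), beside 0.85. Igfbp7 stood at 39.3 and 169 CPM (2.10), beside 0.58, and Sparc at 70.3 and 227 CPM (1.69), beside 0.12; both are taken up again below. Lyz1 stood at 3.79 and 111 CPM (4.88), beside 4.01 in the other barcodes; Lyz1 and Lyz2 are near-identical neighbouring genes, and Lyz2 moved the other way (−1.05), so the assignment of reads between them is uncertain. Among the 10 lowest ratios were those of Gnb2, Ier2, Ftl1-ps1, C1qa, Gas6, Amdhd2, Eif5a, Bin1 and Grina, between −3.92 (Gnb2) and −2.33 (Grina). C1qa, a subunit of complement C1q, stood at 1738 and 292 CPM (−2.57, −2.66 to −2.48), beside −2.76 in the other barcodes. Gas6, the ligand of the Axl and Mertk uptake receptors, stood at 499 and 86.9 CPM (−2.52, −2.69 to −2.36), beside −2.28.

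The lower genes were shared with the rest of the cells. Of the 70 lower genes, 54 were also at least 2-fold lower in all other barcodes, and 69 were below 0 there with an interval that excluded 0. Of the 9 higher genes 0 passed the rule in the other barcodes, where Lyz1 had a ratio of 4.01 but less than 100 CPM. The 3′ end of the lower genes was rich in G and C: 77.1% of the 70 had at least 50% GC in the last 500 nucleotides of the transcript, against 21.5% of the 1846 measured genes. The median log2 ratio in members was −0.28 for the 113 genes of 55% to 60% GC and −0.98 for the 7 genes above that, and lay between 0.00 and 0.09 in the bins below. What part of the lower genes follows GC content, library preparation or genotype was not tested.

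**Figure D4:**
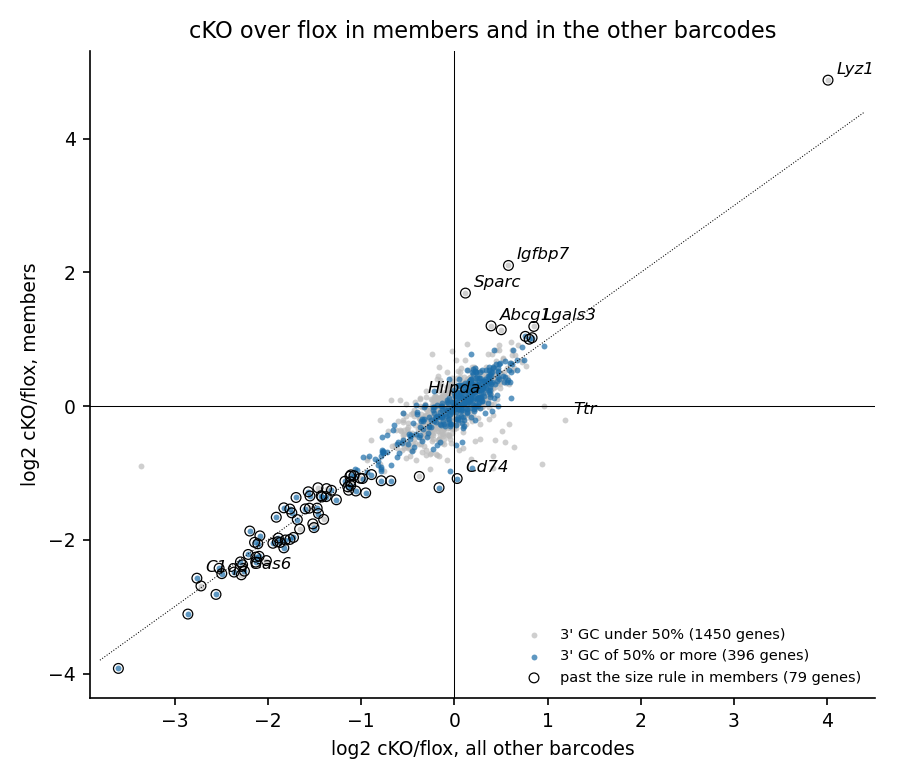
Each point is 1 measured gene, with the log2 ratio cKO over flox in all other barcodes on the x axis and in members on the y axis; blue points have a 3′ GC of 50% or more and black rings mark the 79 genes past the size rule in members. The ringed genes at lower left run along the dotted line of equal ratios, whereas Igfbp7, Sparc and Abcg1 lie above it and Cd74 and Ttr below it.

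Relative to the other barcodes, the highest differences were those of Cd209f, Sparc, Igfbp7, Olfml3 and Lhfpl2, and the lowest were those of Igfbp4, Ttr, Clec10a, Ednrb and Cd74. Cd209f was lower in cKO members (121 and 64.9 CPM, −0.89) and its difference rests on a ratio of −3.36 from few UMIs in the other barcodes. Olfml3, a secreted protein listed as a microglial marker, stood at 205 and 352 CPM in members (0.78, 0.64 to 0.92), beside −0.24. Clec10a stood at 114 and 60.1 CPM (−0.92, −1.16 to −0.69), beside 0.41. Ednrb stood at 593 and 353 CPM (−0.75, −0.85 to −0.65), beside 0.41. Igfbp4 stood at 374 and 204 CPM (−0.87), beside 0.94. In several-gene members alone the ratio was −0.66 for Clec10a, −0.49 for Ednrb and −0.62 for Igfbp4. What part of these differences follows the mix of the 2 kinds of members was not tested.

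The rule genes chose the members, so their levels in several-gene members of the 2 libraries are given as a description. Mrc1 stood at 2325 and 1643 CPM (−0.50), Lyve1 at 1306 and 1094 CPM (−0.25), Cd163 at 554 and 430 CPM (−0.36), Fcna at 423 and 548 CPM (0.37) and Vsig4 at 234 and 282 CPM (0.27). Of border macrophage genes outside the rule, F13a1 stood at 2443 and 2178 CPM (−0.17). Stab1 (0.05), Folr2 (−0.03) and Pf4 (−0.06) had intervals that included 0 or reached it. None of these genes was 2-fold apart between the libraries.

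In several-gene members, 23 of 1873 measured genes (1.23%) were at least 2-fold higher in cKO and 70 (3.74%) lower. Among the 23 were genes that stood high in Cbr2-only members. In several-gene members Abcg1 stood at 54.1 (flox) and 229 CPM (cKO) (2.08, 1.75 to 2.43) and at 289 and 535 CPM in Cbr2-only members (0.89). Thbs1 stood at 206 and 702 CPM (1.77, 1.59 to 1.95), with 4882 and 5922 CPM (0.28) in Cbr2-only members. Arg1, arginase 1, stood at 48.4 and 139 CPM (1.52, 1.16 to 1.91), with 507 and 581 CPM (0.19) in Cbr2-only members. Lgals3 stood at 319 and 880 CPM (1.46, 1.32 to 1.61), with 2190 and 4358 CPM (0.99). Gpnmb stood at 291 and 595 CPM (1.03, 0.87 to 1.19), with 4329 and 4740 CPM (0.13) in Cbr2-only members. Fabp5 (1.05), Tnfaip2 (1.75), Ccrl2 (1.46), Sgk1 (1.25), Tgm2 (1.19), Rgs1 (1.18) and Mylip (1.03) passed the same rule. In the other barcodes Thbs1 was at 0.15, Arg1 at 0.48, Ccrl2 at 0.23 and Rgs1 at −0.15.

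These UMIs were not spread evenly over barcodes. Arg1 was detected in 13 flox and 31 cKO several-gene members, and 5 barcodes held 89.6% and 60.2% of its UMIs. Thbs1 was detected in 45 and 71, with 65.5% and 45.6% of UMIs in 5 barcodes. Abcg1 was detected in 38 and 69, with 31.4% and 23.4%. The 5 highest barcodes held the larger share in flox, so a ratio without them moves up by construction and is not given for these genes.

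For Igfbp7 and Sparc the 5 highest barcodes held the larger share in cKO, so a ratio without them moves down by construction. Igfbp7, a secreted protein of vessel walls, stood at 35.8 and 323 CPM in several-gene members (3.17, 2.78 to 3.59), and 5 cKO barcodes held 88.9% of its UMIs. Without the 5 highest barcodes its ratio was 0.47 (−0.10 to 1.06). Sparc, a matrix protein of endothelium and microglia, stood at 60.3 and 244 CPM (2.02, 1.70 to 2.35), and 5 cKO barcodes held 90.4% of its UMIs. Without them and the 5 highest flox barcodes its ratio was −0.01 (−0.66 to 0.65). The endothelial list summed to 39.6 CPM in flox and 166 CPM in cKO several-gene members, and the highest single cKO barcode reached 111 per 10000. Ly6a, Ptgds and Apod had 88.1%, 96.3% and 98.1% of their cKO UMIs in 5 barcodes.

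Several-gene members were therefore also compared without those holding 3 or more UMIs summed over the endothelial, pericyte and smooth muscle, fibroblast, oligodendrocyte, astrocyte and choroid plexus lists, some abundant transcripts such as Ttr not counted. This left 106 of 159 flox and 94 of 162 cKO barcodes. The limit was a UMI count not scaled to depth, and cKO several-gene members were deeper (median 13194 UMIs against 9015 in flox). The part of depth in which barcodes were left out was not tested. The microglia list and the list of monocytes and infiltrating macrophages, which holds Arg1, Thbs1 and Gpnmb, were not used to leave barcodes out, so this set is not free of other myeloid markers. Igfbp7 (−0.59, −1.34 to 0.16) and Sparc (−0.35, −1.21 to 0.51) were then no longer higher in cKO, and neither were Ly6a, Ptgds and Apod past the rule. Abcg1 (2.51, 2.06 to 3.00), Arg1 (2.63, 1.99 to 3.32), Lgals3 (1.91, 1.72 to 2.11), Thbs1 (1.75, 1.54 to 1.97), Tnfaip2 (1.87), Tgm2 (2.12), Ccrl2 (1.63) and Fabp5 (1.16) stayed past the rule. Hilpda was at 77.6 and 187 CPM (1.27, 0.85 to 1.70). Gpnmb fell short of the rule at 0.74 (0.55 to 0.93). Mrc1 was −0.84 and Cd163 −0.73 in these barcodes.

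**Figure D5:**
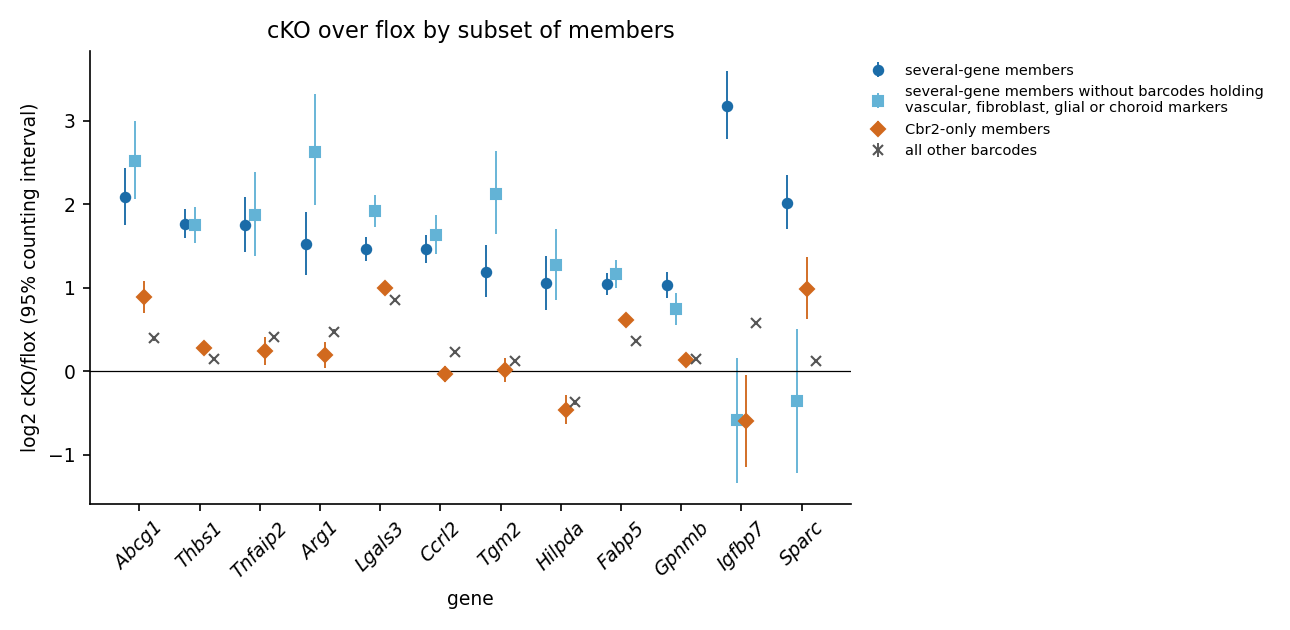
Log2 ratio cKO over flox with its 95% counting interval for 12 genes in several-gene members, in those members without barcodes holding vascular, fibroblast, glial or choroid plexus markers (myeloid lists not used), in Cbr2-only members and in all other barcodes. Abcg1, Thbs1, Arg1, Lgals3 and Hilpda stay above 1 in both sets of several-gene members, whereas Igfbp7 and Sparc drop from 3.17 and 2.02 to below 0.

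In Cbr2-only members the genes past the rule were other ones in part. There Vegfa stood at 470 (flox) and 186 CPM (cKO) (−1.34, −1.54 to −1.13) and at 8.17 and 23.5 CPM in several-gene members (1.52, 0.61 to 2.53). Nr4a1, an immediate early nuclear receptor, was at −1.36 (−1.45 to −1.26) in Cbr2-only and −0.33 in several-gene members, beside −0.93 in the other barcodes. Ccr2 was at −1.24 (−1.50 to −0.99) in Cbr2-only members (300 and 126 CPM), beside −0.37 in the other barcodes. Ifi27l2a and Oasl2, interferon-induced genes, were at −1.05 and −1.11. Whether a ratio differs between the 2 kinds of members was not tested.

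Across 21 gene lists, 2 listed genes were higher and 12 lower in cKO members. Over all measured genes 0.488% were higher and 3.79% lower. The number of listed genes measured, each counted once, is not given, so 2 and 12 are not read as an excess or a shortfall. No list had more than 2 lower genes: 2 of 5 measured MHC class II genes and 2 of 21 measured genes of lysosome and cathepsins. The higher genes were Abcg1, of cholesterol efflux, and Sparc, of matrix. The lower genes, spread over 11 of the lists, were Lrp1, Gas6, Ftl1, C1qa, H2-Aa, Cd74, Ecm1, Ctsd, Hexa, Ier2, Il4ra and Ccr2. Of these, Lrp1 (−1.83), Gas6 (−2.28), Ftl1 (−2.11), C1qa (−2.76), Ecm1 (−1.91), Ctsd (−1.70), Hexa (−2.21) and Ier2 (−2.86) were also at least 2-fold lower in the other barcodes. None of 13 measured chemokines passed the rule; the list's median was −0.08, with −0.02 in the other barcodes. Ccl7 was at −0.69 (1934 and 1200 CPM) and Ccl8 at −0.58 (705 and 473 CPM), beside −0.35 and −0.51. The interferon list had the lowest median of the 21 lists, −0.53, with 0 of 6 measured genes past the rule and −0.44 in the other barcodes. The antioxidant list had a median of 0.34, beside 0.22, with no gene past the rule.

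Of 5 measured MHC class II genes, 2 were at least 2-fold lower in cKO members and 0 higher, and the list's median was −0.24, beside −0.04 in the other barcodes. Of the 10 genes of the list with 30 UMIs, 6 had ratios below 0 and 4 above, Ctss (0.21) and Cd83 (0.13) among the latter. In several-gene members 0 of 3 measured genes passed the rule and the median was 0.05. H2-Aa stood at 139 and 59.7 CPM (−1.22, −1.45 to −0.99), beside −0.16. Cd74 stood at 268 and 126 CPM (−1.08, −1.24 to −0.92), beside 0.03. H2-Ab1 stood at 119 and 63.1 CPM (−0.92, −1.15 to −0.69), just short of the rule, beside 0.19. In several-gene members the ratios were −0.42, −0.70 and −0.75, and in Cbr2-only members −1.49, −1.02 and −0.77. H2-Aa was detected in 59 flox and 66 cKO members, and 5 barcodes held 46.9% and 44.1% of its UMIs. Without the 5 highest barcodes per library the ratio was −1.16 (−1.47 to −0.85) in members and 0.21 (−0.62 to 1.06) in several-gene members. In several-gene members those barcodes held 79.4% of the flox and 68.3% of the cKO UMIs. The larger share was in flox in both sets, so both ratios move up by construction and nothing is concluded from them. Dendritic cell markers summed to 43.4 CPM in flox and 26.5 CPM in cKO members, and their part in this difference was not tested.

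Proliferation genes were present in several-gene members. At least 5 UMIs summed over 10 cell cycle genes were found in 36 of 159 flox (22.6%, 16.4 to 29.9) and 38 of 162 cKO (23.5%, 17.2 to 30.7) several-gene members. In Cbr2-only members they were found in 5 of 95 (5.26%, 1.73 to 11.9) and 10 of 135 (7.41%, 3.61 to 13.2). Microglia had 24.8% and 32.6%, and infiltrating macrophages, which were shallower, 1.42% and 1.93%. Mki67 alone did not separate the kinds in this way. A Mki67 UMI was found in 25.2% and 28.4% of several-gene and 16.8% and 31.1% of Cbr2-only members, and after thinning to 1000 UMIs in 5.66% and 8.02% against 5.26% and 4.44%, with overlapping intervals. Oligodendrocytes had 1.33% and 2.78% before thinning. The shares of several-gene members overlapped between the libraries.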

How the data were processed

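The deposited files hold 1 matrix of UMI counts per library, with whole numbers and no normalization. CASAVA 1.8, STARsolo, Seurat and mm10 are named per the submitters' processing notes; not given in the sources used here are the annotation, the counting settings and the cell calling. Every deposited barcode had at least 500 UMIs. UMI counts were summed over the barcodes of a class in a library and expressed as CPM. Ratios have exact conditional binomial 95% intervals, shares exact Clopper-Pearson and levels exact Poisson ones. A gene was measured with at least 30 UMIs and 100 CPM on the higher side, and was called past the size rule when it was also at least 2-fold apart with an interval that excluded 0. Between cell classes the rule had to hold in both libraries. Named genes were the rule genes, Hilpda, the 12 highest and 6 lowest per class comparison, the 10 highest and 10 lowest between libraries, the 5 largest differences from the other barcodes at each end, and genes of 21 function lists past the rule or with the most UMIs. The members and lists were chosen with earlier results of these data known; the split into several-gene and Cbr2-only members, and the genes named within it, were chosen after its values were seen. Doublets were marked with Scrublet in scanpy 1.11.5 (expected rate 6%) and kept. The 3′ GC content came from the last 500 nucleotides of GENCODE vM21 transcripts, with a value for 31107 of 31253 features. The calculations were tested on simulated data. Alternatives covered thresholds, doublets, scaling (TMM of edgeR 4.0.16 in R 4.3.3, median of ratios), equal weight per cell, thinning to 1000 UMIs, filters, and ratios relative to other barcodes or to genes of like GC. Some genes that the rule names are not reported here.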

Additional observations from a re-analysis of the deposited data

Results flagged for a closer look

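Of the genes whose log2 ratio cKO over flox had opposite signs in 2 sets of barcodes, 5 were flagged. They are not the only ones: Olfml3, Clec10a, Ednrb, Igfbp4 and H2-Ab1, given above, also had opposite signs in members and the other barcodes. With 1 library per group none of these differences was tested. Cd74 was at −1.08 in members and 0.03 in the other barcodes. Ttr was at −0.21 in members and 1.18 in the other barcodes. Hilpda was at 1.06 in several-gene and −0.46 in Cbr2-only members. Igfbp7 was at 3.17 in several-gene and −0.59 in Cbr2-only members, with 88.9% of its cKO UMIs in several-gene members held by 5 barcodes. Vegfa was at 1.52 in several-gene members, from 13 and 47 UMIs, and −1.34 in Cbr2-only members.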

How the results depend on the processing

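The share of members was 2.74% in flox and 3.80% in cKO with 5 rule-gene UMIs and 5 per 10000, 4.61% in cKO when leukocyte genes and no endothelial UMI were asked for, 2.05% and 2.45% for several-gene members alone and 1.22% and 2.04% for Cbr2-only members alone. Of genes higher in cKO members (9), there were 23 in several-gene members, 33 after thinning, 17 with a 50 CPM filter, 187 with 10 UMIs and no CPM filter, and 4 relative to the other barcodes. List genes higher (2) became 6 with the 5-UMI rule, 9 in several-gene members, 4 after thinning and 13 with no CPM filter. Genes lower (70) became 133 with 50 CPM, 594 with no CPM filter and 9 relative to the other barcodes, and list genes lower (12) became 21 and 6 under the latter 2. In several-gene members, genes higher (23) became 251 and list genes higher (9) became 28 with no CPM filter; genes lower (70) became 140 with 50 CPM, 533 with no CPM filter and 5 relative to the other barcodes, and list genes lower (9) became 18 and 2. With 50 CPM and with no CPM filter, genes over microglia became 174 and 445 higher and 109 and 750 lower, and genes over infiltrating macrophages 195 and 651 higher and 147 and 367 lower; the latter were 194 and 161 with several-gene and 35 and 55 with Cbr2-only members. Looser filters admit more genes and stricter sets fewer barcodes; for the other settings the cause was not tested.

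Relative to the other barcodes, the ratio in members turned to 0.10 for Bin1, 0.19 for C1qa, 0.33 for Ctsd, 0.25 for Ecm1, 0.047 for Ftl1 and 0.31 for Lrp1. In several-gene members it turned to 0.16 for Amdhd2, 0.24 for C1qa, 0.44 for Ctsd, 0.83 for Ecm1, 0.076 for Ftl1, 0.19 for Grina, 0.016 for Ier2 and 0.42 for Lrp1. Igfbp7 was −0.59 in Cbr2-only members, and Sparc −0.65 in several-gene members with leukocyte genes and no endothelial UMI. Hilpda in several-gene members fell short of the rule at 0.93 when cells were weighted equally and at 0.98 against genes of like GC. Of 28 named or listed genes past the rule, 28 kept their call under both other scalings, 24 after thinning, 24 relative to genes of like GC and 4 relative to the other barcodes. No paired analysis was possible because the labels carry no replicate numbers and each group has 1 library.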
